A study of Homo sapiens with 8 samples.

Results

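The response to OTX015 was measured in HEL OTX P/R cells, called P/R cells here, a derivative of the erythroleukaemia line HEL92.1.7 that came through exposure to this drug and is labelled persister-resistant. Its 4 libraries, of 8 in the series, are 2 of untreated P/R cells and 2 of P/R cells given 1000 nM OTX015 for 8 h. The other 4 are the same pair of conditions in the parental HEL92.1.7 line, and they entered here through the level filter, the shared estimate of spread and a comparison of the responses at the end. Of 19718 coding genes, the 11255 with at least 1 FPKM (sequenced fragments per kilobase of a gene's transcript, relative to the library) in at least 2 of the 8 libraries were tested. No genotype, transgene or second drug separates the groups in the labels, and all cells were grown in the same serum-supplemented medium. Replicates were treated separately, per the labels. The p-values rest on the spread between such treatments, pooled over the resistant and parental lines and shared across genes. The resistant cells are 1 line. Whether that line is a clone or a pool, and whether "untreated" cells had been kept in the drug before sampling, the sources used here do not say.

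OTX015 (birabresib) is an inhibitor of the BET family of chromatin readers. BET proteins carry paired bromodomains, pockets that hold acetylated lysines on histone tails. Through them BET proteins gather Mediator and the kinase P-TEFb at promoters and enhancers, where P-TEFb lets paused RNA polymerase II go on into the gene. In myeloid leukaemia cells BET inhibitors are best known for lowering transcripts with large, densely acetylated enhancers, among them growth and lineage genes, and for raising HEXIM1 and histone genes. HEL cells carry an activating mutation of the kinase JAK2 and a mixed erythroid and megakaryocyte programme.

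The P/R libraries carried the markers of that programme. The embryonic globin gene HBE1 averaged 9650.5 FPKM in untreated P/R cells and the platelet integrin gene ITGA2B stood at 326 and 300.1 FPKM. The granulocyte gene ELANE, the T cell gene CD3D and the B cell gene MS4A1 were listed at 0 in all 4 P/R libraries. The deposited values had been put on 1 distribution, so each library sums to 678133 FPKM, the sequencing depth cannot be read from them, and a change in total RNA per cell would not be seen. Replicates correlated across genes at r = 0.9966 untreated and 0.9961 under OTX015, where genes are not independent replicates. The median SD between replicates was 0.052 on the log2(FPKM + 1) scale in untreated cells and 0.069 under OTX015.

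OTX015 changed a large part of the transcriptome of P/R cells, mostly by small steps. In limma, with p-values adjusted over all genes tested and a threshold of 0.05, 2531 genes (22.5%) rose, 2450 genes (21.8%) fell and 6274 did not pass, so 44.3% were called. The counts of list members given below are to be read beside these shares. The median absolute log2 change was 0.215. At least 1 log2 unit was gained by 117 called genes (1.04%) and lost by 197 (1.75%). The median log2 change over all genes tested was 0.015. Log2 changes below are of FPKM + 1, so that the change of a gene near 0 is understated. With 2 libraries against 2, an exact permutation test of a single gene cannot go below p = 0.333, so every call rests on the spread shared across genes. At the edge of the level filter, ST3GAL5 entered with a second-highest value of 1.00 FPKM and NOTCH4 stayed out at 0.999 FPKM. At the edge of the call, ZNF574 passed at an adjusted p of 0.0499 and ANKRD50 missed at 0.0501.

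**Figure D1:**
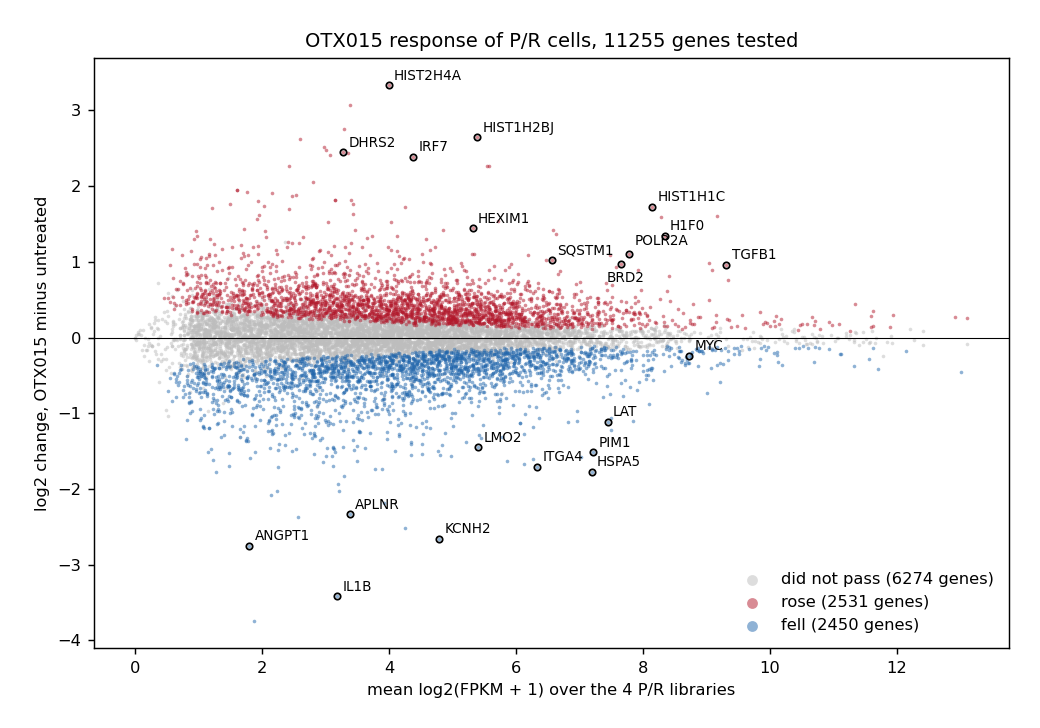
Log2 change (OTX015 minus untreated, y axis) against mean log2(FPKM + 1) over the 4 P/R libraries (x axis) for each of 11255 genes tested; red points rose, blue points fell and grey points did not pass. The largest rises include histone genes and the largest falls include IL1B, KCNH2 and ANGPT1, while MYC has a log2 change of -0.24.

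BRD2 and BRD3, which encode BET proteins that the drug binds, rose. BRD2 stood at 145 and 140.1 FPKM untreated and 279 and 282 FPKM under OTX015 (log2 change 0.97, SE 0.07, adjusted p = 1.3e-05), so both treated libraries lay far above both untreated ones. BRD3 rose by less (log2 change 0.38, SE 0.13, adjusted p = 0.0342), and its call did not hold with any P/R library left out (adjusted p 0.0771 without untreated replicate 1, 0.137 without untreated replicate 2, 0.166 without OTX015 replicate 1, 0.0593 without OTX015 replicate 2). The inhibitor of P-TEFb HEXIM1, widely used as a marker of BET inhibition, stood at 23.2 and 23.0 FPKM untreated and 64.3 and 65.0 FPKM under OTX015 (log2 change 1.45, SE 0.054, adjusted p = 4.14e-07). Its treated values were alike and far above the untreated ones. Among the 7 tested genes of P-TEFb and the 7SK complex that holds it inactive, the kinase gene CDK9 (log2 change 0.23) and the capping enzyme gene MEPCE (log2 change 0.34) also rose, the HEXIM1 paralogue HEXIM2 (log2 change -0.51) and the 7SK-binding gene LARP7 (log2 change -0.49) fell, and the other two did not pass. The calls of CDK9, HEXIM2 and LARP7 did not hold with each library left out. CDK9 then reached adjusted p 0.0659 without untreated replicate 1, 0.0647 without untreated replicate 2, 0.0795 without OTX015 replicate 1. HEXIM2 reached adjusted p 0.0615 without untreated replicate 1, 0.0507 without untreated replicate 2, 0.0672 without OTX015 replicate 2. LARP7 reached adjusted p 0.0686 without untreated replicate 2, 0.0511 without OTX015 replicate 1. Of 26 genes for elongation factors and kinases of the polymerase tail, 9 rose and 3 fell (1 without untreated replicate 2, 1 without OTX015 replicate 1). SUPT4H1, a subunit of the elongation factor DSIF, rose (log2 change 0.54, SE 0.075, adjusted p = 4.69e-04), and CCNH, the cyclin of the kinase CDK7, fell (log2 change -0.52, SE 0.081, adjusted p = 7.87e-04). POLR2A, the catalytic subunit of polymerase II, stood at 153 and 145 FPKM untreated and 335 and 305 FPKM under OTX015 (log2 change 1.10, SE 0.057, adjusted p = 2.46e-06), the largest log2 change among 20 commonly used reference genes.

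The title of the series names an axis of β-catenin, TCF7L2, JMJD6 and MYC, and its 4 genes moved by at most 0.58 log2 units in P/R cells. TCF7L2, a DNA-binding partner of β-catenin, stood at 7.31 and 8.39 FPKM untreated and 4.63 and 5.22 FPKM under OTX015 (log2 change -0.58, SE 0.11, adjusted p = 0.00212). JMJD6, an oxygenase of the nucleus, stood at 34.2 and 36.3 FPKM untreated and 23.5 and 25.0 FPKM under OTX015 (log2 change -0.52, SE 0.066, adjusted p = 2.69e-04). MYC stood at 461 and 461 FPKM untreated and 386 and 394 FPKM under OTX015 (log2 change -0.24, SE 0.034, adjusted p = 4.54e-04) and stayed among the more abundant transcripts. CTNNB1, the gene of β-catenin itself, rose from 85.3 and 84.6 FPKM to 117 and 115 FPKM (log2 change 0.45, SE 0.045, adjusted p = 7.63e-05).

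Nearly all histone genes that lie in clusters rose. Their transcripts mostly end in a stem-loop in place of a poly(A) tail. Of 70 such genes in the table, 60 were tested, and 57 of these rose, 0 fell and 3 did not pass, with a median log2 change of 1.44 beside 0.015 over all genes. By class, the counts that rose were 4 of 4 for linker H1, 14 of 16 for H2A, 16 of 16 for H2B, 12 of 12 for H3 and 11 of 12 for H4. In 22 of the 60 both untreated P/R libraries lay below 1 FPKM, so these could pass the filter through treated or parental cells; of the other 38, all rose. The 10 that were not tested reached at most 0.619 FPKM, and 6 of them were at 0 in all P/R libraries. Summed over the 70 genes, the level was 653.7 and 656.9 FPKM untreated and 2299 and 2356 FPKM under OTX015. The labels do not say how RNA was selected for sequencing, so these levels need not be those of the tailless transcripts.

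Single histone genes spanned low and high levels. HIST2H4A stood at 3.94 and 4.07 FPKM untreated and 48.9 and 50.2 FPKM under OTX015 (log2 change 3.33, SE 0.087, adjusted p = 6.49e-08), the largest rise of any gene by the naming rule, and its near-identical copy HIST2H4B at 2.52 and 2.65 FPKM untreated and 29.2 and 29.1 FPKM under OTX015, where reads may have been divided between the copies. HIST1H2BJ went from 14.8 and 16.7 to 102 and 105 FPKM (log2 change 2.65, SE 0.14, adjusted p = 2.67e-06). HIST1H1C, a linker histone that was abundant before treatment, went from 154 and 155 to 512 and 515 FPKM (log2 change 1.73, SE 0.048, adjusted p = 6.49e-08). In each of these the treated libraries lay close together and well above both untreated ones. HIST2H2AA3 and HIST2H2AA4, another near-identical pair, went from means of 20.6 and 20.3 FPKM to 103 and 102 FPKM. Other rises of over 2 log2 units were HIST1H3H (2.75), HIST1H2BG (2.62), HIST2H2BE (2.51), HIST1H2AE (2.47), HIST1H4H (2.44), HIST1H2AI (2.42) and HIST1H3D (2.27), with the log2 change in parentheses. The untreated values of HIST1H3D, 3.07 and 0.467 FPKM, were far apart. Histone genes outside the clusters, which make ordinary polyadenylated messages, moved too: of 11 tested, 8 rose, 1 fell and 2 did not pass. The linker genes H1FX (log2 change 1.59, SE 0.078, adjusted p = 1.79e-06) and H1F0 (log2 change 1.35, SE 0.04, adjusted p = 1.01e-07) led, and the macroH2A gene H2AFY (log2 change -0.27) fell.

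**Figure D2:**
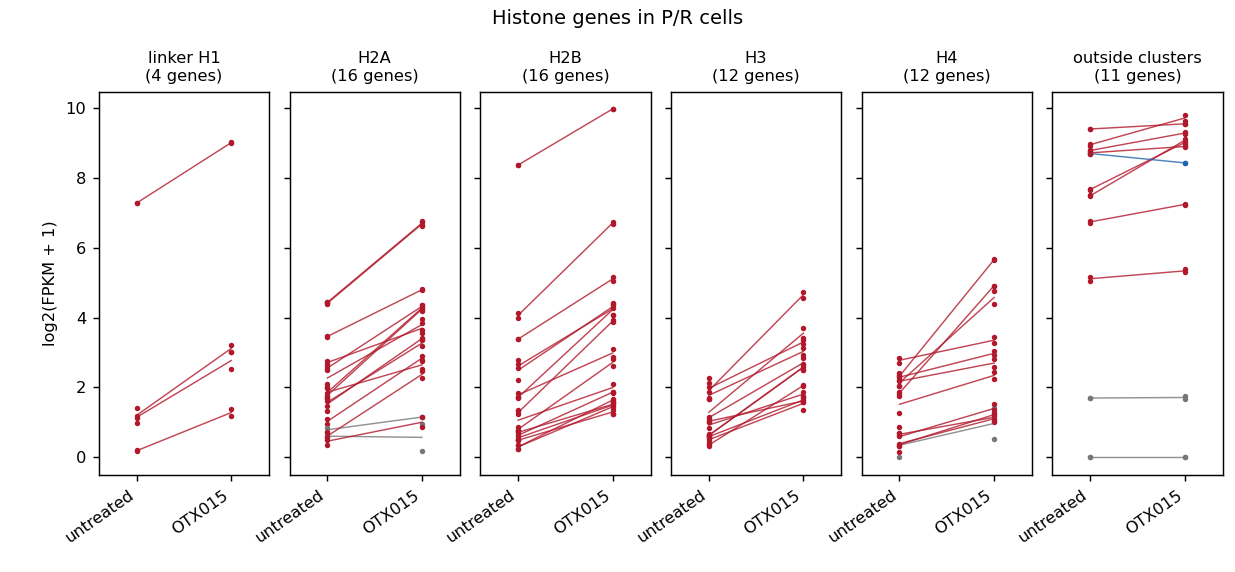
Log2(FPKM + 1) of each tested histone gene in untreated and OTX015-treated P/R cells; points are single libraries, lines join the group means, and red, blue and grey mark genes that rose, fell or did not pass. Most lines climb in every clustered class. The genes that rose were 4 of 4 in H1, 14 of 16 in H2A and 16 of 16 in H2B. In H3 they were 12 of 12 and in H4 11 of 12.

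Promoters are shown for 3 strongly raised H2B genes because H2B promoters are known for the octamer, a site bound by OCT factors. The stretches run from 120 bases to 1 base before the start of the gene (RefSeq, GRCh38.p14), the octamer ATTTGCAT is in capitals, and all 3 genes are on the minus strand. HIST1H2BJ lies at chr6:27132796-27132915, HIST1H2BG at chr6:26216689-26216808 and HIST2H2BE at chr1:149886683-149886802.
HIST1H2BJ: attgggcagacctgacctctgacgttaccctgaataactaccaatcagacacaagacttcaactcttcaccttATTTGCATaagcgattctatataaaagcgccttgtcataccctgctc
HIST1H2BG: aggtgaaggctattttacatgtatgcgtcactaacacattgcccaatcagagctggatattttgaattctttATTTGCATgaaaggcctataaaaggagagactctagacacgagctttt
HIST2H2BE: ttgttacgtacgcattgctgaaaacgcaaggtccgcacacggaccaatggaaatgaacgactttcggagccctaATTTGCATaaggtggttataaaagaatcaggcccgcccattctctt

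Over the 300 bases held for each gene (250 before and 50 after the start, both strands searched), ATTTGCAT stood in 13 of 16 tested H2B promoters (81.2%) and 10 of 13 H2A promoters (76.9%), in 1 of 8 of H3, and in 0 of 10 of H4 and 0 of 4 of H1. It stood in 1.46% of the 9180 tested genes with a promoter in the table and in 1.80% of all 27305 RefSeq promoters. A match is a description of letters, not of a bound factor.

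Few of the 15 largest rises lay outside the histone families. Of all 117 genes that rose by at least 1 log2 unit, 40 were clustered histone genes and 2 were histone genes outside the clusters. IRF7, a transcription factor of the interferon response, stood at 7.70 and 8.54 FPKM untreated and 47.5 and 45.95 FPKM under OTX015 (log2 change 2.39, SE 0.074, adjusted p = 1.13e-07). Of 36 interferon-stimulated genes tested, 6 rose and 14 fell. STAT2 (0.53) and IFI6 (0.57) rose too, while the antiviral gene RSAD2 (-0.90), the immunoproteasome gene PSMB8 (-0.73) and LGALS3BP (-0.67) fell, each given with its log2 change. DHRS2, a mitochondrial reductase gene, went from 2.71 and 3.67 to 21.5 and 21.8 FPKM (log2 change 2.44, SE 0.11, adjusted p = 1.32e-06). The clone-named gene RP1-34B20.21, which has no functional name in the table, went from 2.09 and 2.75 to 12.9 and 13.5 FPKM (log2 change 2.06, SE 0.13, adjusted p = 5.58e-06).

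The largest falls included secreted, surface and channel genes. GAGE12B, a cancer-testis gene with near-identical copies, was listed at 4.74 and 30.3 FPKM untreated and at 0 in both treated libraries, and its untreated values were far apart. IL1B, the inflammatory cytokine, stood at 26.6 and 30.6 FPKM untreated and 3.18 and 0.837 FPKM under OTX015 (log2 change -3.41, SE 0.29, adjusted p = 3.05e-05), with the second treated replicate lower than the first. ANGPT1, the ligand of the receptor TIE2, stood at 7.52 and 8.53 FPKM untreated and 0.537 and 0.167 FPKM under OTX015 (log2 change -2.75, SE 0.14, adjusted p = 2.64e-06). KCNH2, a voltage-gated potassium channel, stood at 67.2 and 69.8 FPKM untreated and 12.3 and 8.09 FPKM under OTX015 (log2 change -2.66, SE 0.14, adjusted p = 2.67e-06), and in all 3 genes the groups stay apart. APLNR, the apelin receptor, went from 22.9 and 21.8 to 4.64 and 2.81 FPKM (log2 change -2.33, SE 0.16, adjusted p = 8.02e-06). GRIK4, a glutamate receptor subunit, fell from 33.6 and 58.8 to 4.25 and 11.0 FPKM, with wide gaps between replicates in each group (log2 change -2.52, SE 0.48, adjusted p = 0.0026). Also among the 15 largest falls were SMIM11B (-2.38), another near-identical copy, the lectin gene ITLN2 (-2.19), the membrane gene MS4A4A (-2.08), MYO3B (-2.03), GPR85 (-2.02), NOSTRIN (-1.94), ANKRD55 (-1.83) and LRFN4 (-1.74), with log2 changes in parentheses.

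**Figure D3:**
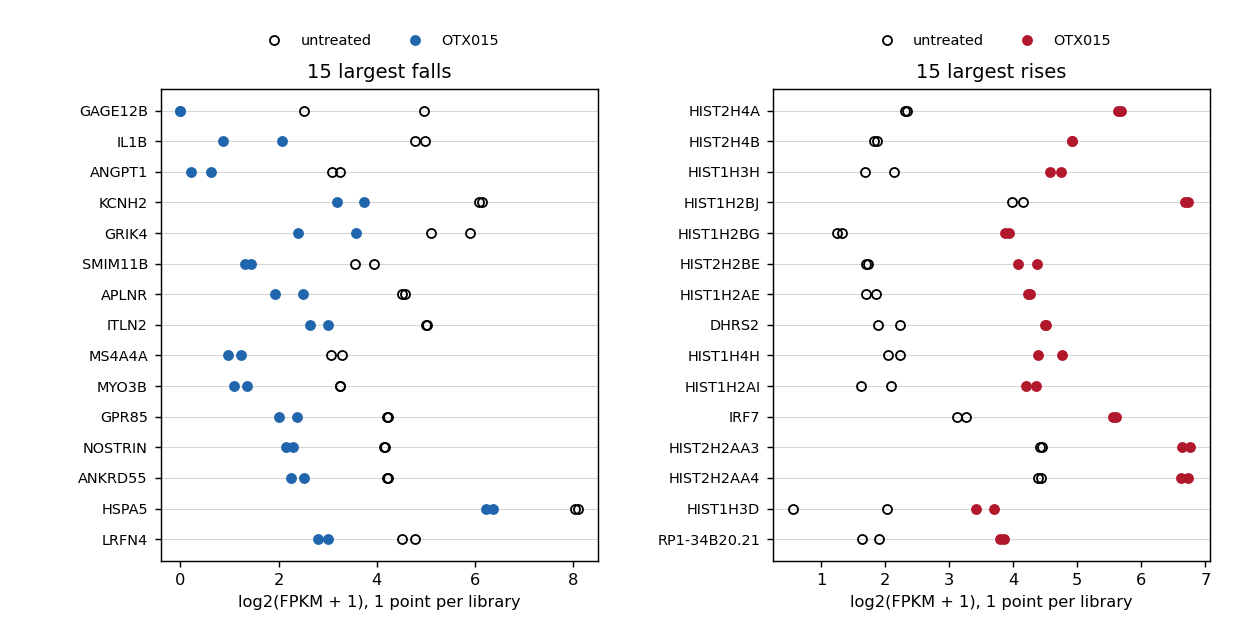
Log2(FPKM + 1) in each P/R library for the 15 largest falls (left) and 15 largest rises (right) that passed, with a mean of at least 5 FPKM in one P/R group; open circles are untreated and filled circles treated replicates. The rule took only genes whose groups do not overlap, and GAGE12B, HIST1H3D, GRIK4 and IL1B show wide replicate gaps.

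KCNH2 was not alone in its family. Of 19 tested potassium channel genes, 11 fell, 0 rose (1 without untreated replicate 1) and 8 did not pass (median log2 change -0.49). KCNN4, the calcium-activated channel of blood cells, went from 36.4 and 33.6 to 15.19 and 12.6 FPKM (log2 change -1.28, SE 0.086, adjusted p = 8.33e-06), and KCNE3 (-0.81), KCNK6 (-0.78), KCNQ5 (-0.85) and KCNIP2 (-1.23) fell by the log2 changes given. Among 16 integrin genes, ITGA4, a subunit that anchors progenitors in the marrow, fell from a mean of 145 to 43.8 FPKM (log2 change -1.71, SE 0.09, adjusted p = 2.64e-06), with no overlap between groups.

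Among 17 cytokine and chemokine genes, 4 rose (2 without untreated replicate 1) and 8 fell, beside 22.5% and 21.8% of all genes tested. Besides IL1B, the falls included the macrophage growth factor CSF1 (log2 change -1.50, SE 0.10, adjusted p = 9.67e-06), the lymphotoxin gene LTB (log2 change -1.27, SE 0.11, adjusted p = 3.33e-05) and the chemokines CXCL2 (-1.06) and CXCL3 (-0.95). TGFB1 went the other way from a high level, 458 and 450.2 FPKM untreated and 957 and 818 FPKM under OTX015 (log2 change 0.96, SE 0.084, adjusted p = 3.43e-05). Of 26 tested genes of the TGF-beta list, TGFB1 included, 9 rose and 4 fell (2 without OTX015 replicate 2). The decoy receptor gene BAMBI rose (log2 change 0.98, SE 0.10, adjusted p = 6.61e-05), while the co-receptor gene ENG fell (log2 change -0.68, SE 0.088, adjusted p = 2.82e-04). Of 40 genes of cytokine receptors and JAK-STAT signalling, 10 rose (6 without OTX015 replicate 1) and 17 fell. PIM1, a kinase gene induced by STAT5, stood at 257 and 240.3 FPKM untreated and 91.9 and 81.3 FPKM under OTX015 (log2 change -1.51, SE 0.063, adjusted p = 6.69e-07). The shared receptor subunit CSF2RB (log2 change -1.24, SE 0.081, adjusted p = 7.26e-06), the phosphatase gene PTPN6 (log2 change -1.18, SE 0.083, adjusted p = 1.18e-05) and STAT5A (log2 change -0.72, SE 0.064, adjusted p = 3.63e-05) fell, and JAK1 rose (log2 change 0.62, SE 0.068, adjusted p = 1.14e-04).

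Genes of blood cell identity fell more often than they rose. Of 25 leukaemia genes listed as sensitive to BET inhibitors, 17 fell and 2 rose (median log2 change -0.35). LMO2, a bridging factor of stem cell enhancer complexes, stood at 70.5 and 67.8 FPKM untreated and 26.3 and 23.1 FPKM under OTX015 (log2 change -1.45, SE 0.088, adjusted p = 5.12e-06). MYB, a regulator of progenitor growth, stood at 63.6 and 67.6 FPKM untreated and 27.9 and 24.9 FPKM under OTX015 (log2 change -1.28, SE 0.063, adjusted p = 1.79e-06), and SPI1, which encodes the myeloid factor PU.1, at 106 and 109 FPKM untreated and 46.9 and 41.0 FPKM under OTX015 (log2 change -1.28, SE 0.072, adjusted p = 3.72e-06). In each of these 3 both treated values lay far below both untreated ones. IKZF1 (log2 change -1.23, SE 0.083, adjusted p = 8.64e-06) and the AP-1 gene FOSL1 (log2 change -1.40, SE 0.092, adjusted p = 7.26e-06) also fell. Over 33 transcription factors of haematopoiesis, 13 fell and 3 rose, the risers being ZFPM1, the cofactor of GATA1 (log2 change 0.72, SE 0.076, adjusted p = 9.48e-05), HHEX (log2 change 0.36, SE 0.047, adjusted p = 2.77e-04) and GATA1 itself (log2 change 0.17, SE 0.038, adjusted p = 0.00511). MEF2C, a megakaryocyte and lymphoid factor, fell from 107 and 108 to 57.3 and 56.2 FPKM (log2 change -0.91, SE 0.064, adjusted p = 1.11e-05).

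Stem and progenitor genes fell in 13 of 18 tested, and 0 rose. Among members with a mean of at least 5 FPKM in one P/R group, ANGPT1 and MYB were followed by the RNA-binding genes LIN28B (log2 change -0.78, SE 0.079, adjusted p = 7.56e-05) and MSI2 (log2 change -0.55, SE 0.072, adjusted p = 3.09e-04). The homeobox gene HOXA10 also fell (log2 change -0.53, SE 0.07, adjusted p = 3.38e-04). Over the HOX clusters, 7 of 17 tested genes fell and 0 rose, led by HOXA11 (-1.02) and HOXD13 (-0.82).

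In bulk samples of a cell line, fewer cells expressing a gene and less RNA per cell cannot be told apart. This bears on the lineage lists that follow. Of 33 megakaryocyte and platelet genes, 23 fell and 4 rose (median log2 change -0.46). PLEK, a platelet kinase substrate, stood at 279 and 271 FPKM untreated and 116 and 118 FPKM under OTX015 (log2 change -1.23, SE 0.044, adjusted p = 3.25e-07). The adaptor gene LAT stood at 254 and 254 FPKM untreated and 125 and 109.8 FPKM under OTX015 (log2 change -1.11, SE 0.059, adjusted p = 2.64e-06). P-selectin (SELP; log2 change -1.56, SE 0.12, adjusted p = 1.67e-05) and CD226 (log2 change -1.46, SE 0.079, adjusted p = 2.67e-06) had larger log2 falls, from lower levels. ITGB3, a subunit of the platelet fibrinogen receptor, rose (log2 change 0.41, SE 0.05, adjusted p = 1.98e-04), as did SERPINE2 (log2 change 1.14, SE 0.16, adjusted p = 4.71e-04) and SPARC (log2 change 0.61, SE 0.074, adjusted p = 2.13e-04).

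Of 46 erythroid genes, 22 fell and 10 rose. EPB42, a gene of the red cell membrane skeleton, stood at 45.9 and 47.7 FPKM untreated and 16.8 and 13.9 FPKM under OTX015 (log2 change -1.55, SE 0.084, adjusted p = 2.67e-06), with both treated values far below both untreated ones. HEMGN, a nuclear protein of erythroblasts, fell (log2 change -1.20, SE 0.10, adjusted p = 2.25e-05). The haem synthesis genes ALAD (0.64) and CPOX (0.61) rose by the log2 changes given. Of the globin genes named here, HBE1 fell and the HBA genes rose. HBE1 averaged 9650.5 FPKM untreated and 7067 FPKM under OTX015 (log2 change -0.45, SE 0.027, adjusted p = 5.12e-06), while HBA1 averaged 8044 and 9650.5 FPKM (log2 change 0.26, SE 0.036, adjusted p = 4.17e-04) and its near-identical copy HBA2 also rose (log2 change 0.27, SE 0.046, adjusted p = 0.0015). At such ranks the normalization gives genes of equal rank the same value, which narrows the spread. HBE1 had the same value in both untreated libraries and the same in both treated ones. The treated mean of HBA1 is the 9650.5 FPKM that HBE1 held untreated. The sizes and SEs of these changes are thus set by ranks, and the p-values do not measure spread in level. Other genes with equal replicate values carry the same limit.

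Lists of other blood and tissue cells held no gene that rose. Of 11 monocyte and granulocyte genes, 9 fell, among them NCF4, a subunit of the oxidase of phagocytes (log2 change -0.92, SE 0.058, adjusted p = 6.17e-06), and CD36 (log2 change -0.90, SE 0.11, adjusted p = 1.99e-04). CD14 reached at most 0.108 FPKM in P/R cells. Of 10 mast cell, basophil and eosinophil genes, 5 fell (3 without untreated replicate 2, 2 without OTX015 replicate 1, 3 without OTX015 replicate 2), including the IgE receptor gene FCER1A, which stood at 132 and 133 FPKM untreated and 44.7 and 41.3 FPKM under OTX015 (log2 change -1.60, SE 0.069, adjusted p = 8.1e-07). HDC, which makes histamine, also fell (log2 change -0.56, SE 0.057, adjusted p = 8.32e-05). Of 9 lymphocyte genes, 6 fell (3 without untreated replicate 2), with only CD4 above 5 FPKM (log2 change -0.26, SE 0.071, adjusted p = 0.0144; adjusted p 0.0831 without untreated replicate 1, 0.0574 without untreated replicate 2, 0.0539 without OTX015 replicate 1). Of 4 epithelial, endothelial and stromal genes, 3 fell, with only the adhesion gene PECAM1 above 5 FPKM (log2 change -0.82, SE 0.081, adjusted p = 6.52e-05). Summed over each list, the 2 untreated and the 2 treated libraries held 552 and 581 against 365 and 345 FPKM for monocyte and granulocyte genes, 677 and 654 against 521 and 509.8 FPKM for mast cell genes, 45.6 and 47.1 against 36.9 and 35.4 FPKM for lymphocyte genes and 26.6 and 26.2 against 16.1 and 17.9 FPKM for epithelial, endothelial and stromal genes. All P/R libraries are cultures of 1 line derived from HEL92.1.7 cells. Whether the share of its cells that express these genes changed was not tested.

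Chaperones of the endoplasmic reticulum fell from high levels. HSPA5, the gene of the chaperone BiP, stood at 274 and 263 FPKM untreated and 81.9 and 74.0 FPKM under OTX015 (log2 change -1.77, SE 0.053, adjusted p = 1.01e-07). Its cofactor SDF2L1 stood at 126 and 121 FPKM untreated and 42.7 and 34.3 FPKM under OTX015 (log2 change -1.66, SE 0.086, adjusted p = 2.46e-06), and HERPUD1, which serves disposal of misfolded proteins, at 47.95 and 59.6 FPKM untreated and 19.0 and 15.8 FPKM under OTX015 (log2 change -1.57, SE 0.14, adjusted p = 3.59e-05). HSP90B1, the chaperone GRP94, went from 344 and 327 to 153 and 158 FPKM (log2 change -1.10, SE 0.048, adjusted p = 8.37e-07). In all 4 both treated replicates lay far below both untreated ones. MANF (log2 change -1.10, SE 0.058, adjusted p = 2.64e-06) and XBP1, a transcription factor of the unfolded protein response (log2 change -0.91, SE 0.067, adjusted p = 1.41e-05), fell as well. Of 34 tested genes of this group, 20 fell, 1 rose (0 without untreated replicate 2, 0 without OTX015 replicate 1, 0 without OTX015 replicate 2) and 13 did not pass (median log2 change -0.39).

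The promoters of 5 of these genes are printed because they hold the endoplasmic reticulum stress elements by which ATF6 and XBP1 are known to act. The ATF6 gene itself did not pass in limma (log2 change -0.051, adjusted p = 0.681). The stretches run from 200 bases to 1 base before the start (RefSeq, GRCh38.p14). Capitals mark the first form of the element, CCAAT and CCACG with 9 bases between them, or the second form, ATTGG and CCACG with 1 base between them, on either strand. Both contain the CCAAT box, whose other copies stay in lower case. HSPA5 lies at chr9:125241344-125241543 (minus strand), SDF2L1 at chr22:21642102-21642301 (plus), HERPUD1 at chr16:56931942-56932141 (plus), HSP90B1 at chr12:103930210-103930409 (plus) and XBP1 at chr22:28800570-28800769 (minus).
HSPA5: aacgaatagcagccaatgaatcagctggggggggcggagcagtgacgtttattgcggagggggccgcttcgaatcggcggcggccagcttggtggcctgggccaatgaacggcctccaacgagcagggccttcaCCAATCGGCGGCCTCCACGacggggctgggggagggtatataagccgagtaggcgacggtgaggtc
SDF2L1: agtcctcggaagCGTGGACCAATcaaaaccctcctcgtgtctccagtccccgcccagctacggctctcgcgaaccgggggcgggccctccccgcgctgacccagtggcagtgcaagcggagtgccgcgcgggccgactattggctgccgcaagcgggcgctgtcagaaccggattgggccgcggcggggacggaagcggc
HERPUD1: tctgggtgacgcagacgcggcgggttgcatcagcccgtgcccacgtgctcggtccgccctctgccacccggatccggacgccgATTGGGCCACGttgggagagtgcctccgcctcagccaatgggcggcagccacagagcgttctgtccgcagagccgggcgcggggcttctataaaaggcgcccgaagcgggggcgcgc
HSP90B1: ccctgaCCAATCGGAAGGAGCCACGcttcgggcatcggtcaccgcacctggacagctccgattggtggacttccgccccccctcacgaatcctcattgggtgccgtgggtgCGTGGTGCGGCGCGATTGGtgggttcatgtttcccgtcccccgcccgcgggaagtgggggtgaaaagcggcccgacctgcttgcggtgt
XBP1: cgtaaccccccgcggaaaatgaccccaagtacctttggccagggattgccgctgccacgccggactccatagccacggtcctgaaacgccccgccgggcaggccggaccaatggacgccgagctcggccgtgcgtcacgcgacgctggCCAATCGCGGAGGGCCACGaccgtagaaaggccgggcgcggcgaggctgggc

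Only 23 tested genes (0.251% of those with a promoter) held either element within their 300 bases. Of these 13 fell, 1 rose and 9 did not pass. Of the 23, 9 belong to the chaperone and stress list, and all 9 fell: the 5 printed genes, CALR (-0.73), CRELD2 (-0.71), HYOU1 (-0.48) and CANX (-0.35), with log2 changes in parentheses. The list members with a promoter and no such letters were 10 that fell and 12 that did not fall. Of the 14 genes outside the list, 4 fell and ZNF17 rose (log2 change 0.43, SE 0.15, adjusted p = 0.0452; adjusted p 0.228 without untreated replicate 2, 0.261 without OTX015 replicate 2). Over all 27305 RefSeq promoters, 0.0806% held the first form and 0.0549% the second.

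Chaperones of the cytosol and mitochondria fell by smaller steps. Of 33 heat shock genes, 24 fell, 0 rose and 9 did not pass (median log2 change -0.29). HSPH1 stood at 75.9 and 72.4 FPKM untreated and 40.4 and 44.4 FPKM under OTX015 (log2 change -0.79, SE 0.068, adjusted p = 3.17e-05). The mitochondrial co-chaperone gene HSPE1 went from 251 and 245 to 157 and 170.2 FPKM (log2 change -0.60, SE 0.049, adjusted p = 2.33e-05). SERPINH1, on this list though its collagen chaperone resides in the endoplasmic reticulum, also fell (log2 change -0.80, SE 0.08, adjusted p = 6.87e-05). HSPA1A (-0.57) and HSPA1B (-0.53), which are near-identical, fell alike. The heat shock element, searched as GAA, TTC and GAA with 2 bases between each, stood in 4 of 30 promoters of this list (13.3%) beside 0.283% of tested genes. The related list of ATF4 and amino acid stress genes had 12 falls and 6 rises among 29: CBS, an enzyme of cysteine synthesis (log2 change -1.47, SE 0.21, adjusted p = 4.5e-04), and DDIT3, the stress factor CHOP (log2 change -0.78, SE 0.085, adjusted p = 1.14e-04), fell, while SESN2 (log2 change 0.75, SE 0.082, adjusted p = 1.14e-04) and PPP1R15A, which restores translation after stress (log2 change 0.71, SE 0.054, adjusted p = 1.59e-05), rose.

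Many genes for making ribosomes fell. Of 61 nucleolar and assembly genes listed as MYC targets, 41 fell, 0 rose and 20 did not pass (median log2 change -0.34), while MYC itself changed by -0.24. BRIX1 stood at 52.0 and 51.4 FPKM untreated and 25.9 and 30.9 FPKM under OTX015 (log2 change -0.85, SE 0.09, adjusted p = 9.87e-05), and GNL3L (-0.81), UTP20 (-0.80), GAR1 (-0.80), NIP7 (-0.75) and MYBBP1A (-0.75) fell by the log2 changes given. The E-box CACGTG, the core site of MYC, stood in 17 of 52 promoters of the list (32.7%) beside 10.6% of tested genes, namely in 12 of 37 that fell and 5 of 15 that did not pass. Of 77 mitochondrial ribosomal protein genes, 34 fell (21 without untreated replicate 2, 22 without OTX015 replicate 1) and 3 rose (1 without untreated replicate 1, 1 without OTX015 replicate 1). MRPL3 was among those that fell (log2 change -1.06, SE 0.092, adjusted p = 3.33e-05). Of 33 aminoacyl-tRNA synthetase genes 15 fell and 3 rose, with DARS (-0.62) and NARS (-0.50) among the largest falls. The genes of the finished cytosolic ribosome moved little, with 13 rises and 20 falls among 83 that became 8 and 7 without untreated replicate 1 and 8 and 8 without untreated replicate 2, and the falls numbered 10 without OTX015 replicate 1. A fit without a variance trend called 3 rises and 5 falls. RPL28 (0.28) and RPL34 (-0.34) were the largest rise and among the largest falls, and the list median was -0.027.

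Nucleotide synthesis genes moved both ways. Over 38 genes, 19 fell and 5 rose. RRM2, the regulated subunit of ribonucleotide reductase, stood at 396 and 396 FPKM untreated and 739 and 739 FPKM under OTX015 (log2 change 0.90, SE 0.043, adjusted p = 1.62e-06), and the thymidine kinase gene TK1 also rose (log2 change 0.69, SE 0.04, adjusted p = 4e-06). The replicates of RRM2 are equal as printed in each group, so its SE and p-value may understate the spread, as for the globins. The folate carrier gene SLC19A1 (log2 change -0.71, SE 0.054, adjusted p = 1.59e-05), the purine enzyme genes IMPDH1 (-0.67) and PFAS (-0.61) and the pyrimidine enzyme gene DHODH (-0.57) fell. RNA processing genes included HNRNPDL, a splicing regulator, which fell from 165 and 164 to 74.8 and 76.5 FPKM (log2 change -1.11, SE 0.041, adjusted p = 4.14e-07).

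**Figure D4:**
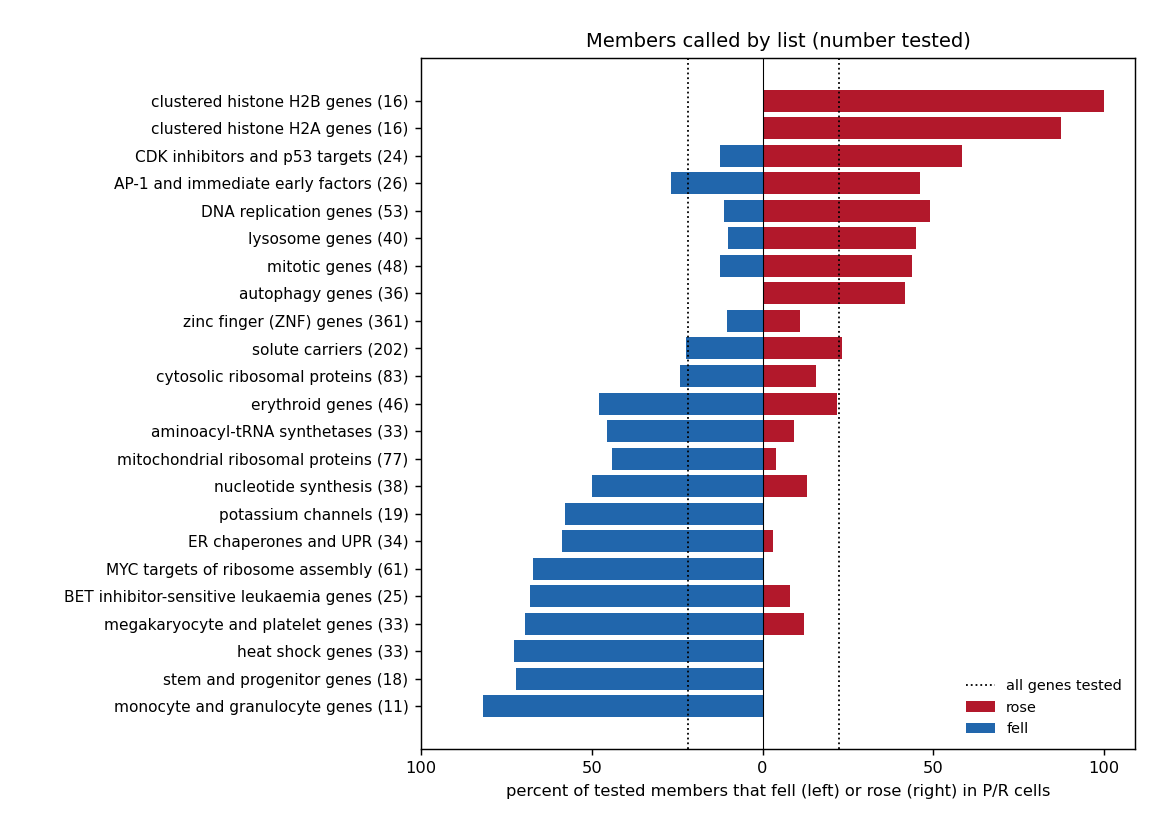
Percent of tested members that fell (blue, left) or rose (red, right) in P/R cells for 23 gene lists, with the number tested in parentheses; dotted lines mark 21.8% and 22.5%, the shares over all 11255 genes. Clustered H2A and H2B genes lie far to the right, and heat shock, progenitor and myeloid genes far to the left. Zinc finger, solute carrier and cytosolic ribosomal protein genes lie near or under the dotted lines. Mitochondrial ribosomal protein genes lie to the left, with 44.2% falls.

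Genes of DNA replication and mitosis rose more often than they fell, by small steps. Of 53 DNA replication genes, 26 rose and 6 fell (median log2 change 0.16). ASF1B, a histone chaperone of replication forks (log2 change 0.64, SE 0.046, adjusted p = 1.3e-05), and LIG1, the ligase of lagging strands (log2 change 0.54, SE 0.068, adjusted p = 2.48e-04), rose, and POLE2 fell (log2 change -0.68, SE 0.10, adjusted p = 5.19e-04). Of 48 mitotic genes, 21 rose (10 without untreated replicate 2, 13 without OTX015 replicate 2) and 6 fell, among the latter UBE2C (log2 change -0.63, SE 0.047, adjusted p = 1.5e-05), AURKA (log2 change -0.46, SE 0.061, adjusted p = 3.32e-04) and PLK1 (log2 change -0.26, SE 0.048, adjusted p = 0.00198). Of 24 genes of CDK inhibitors and p53 targets, 14 rose and 3 fell (1 without untreated replicate 2, 1 without OTX015 replicate 1), with a median log2 change of 0.39. TP53I3 stood at 5.85 and 5.54 FPKM untreated and 16.4 and 17.5 FPKM under OTX015 (log2 change 1.42, SE 0.084, adjusted p = 4.63e-06), and the antiproliferative gene BTG2 (log2 change 0.94, SE 0.055, adjusted p = 4.19e-06) and the atypical cyclin gene CCNG1 (log2 change 0.76, SE 0.092, adjusted p = 2.01e-04) rose, whereas the p53 antagonist MDM2 fell (log2 change -0.46, SE 0.14, adjusted p = 0.0237; adjusted p 0.135 without untreated replicate 2, 0.134 without OTX015 replicate 1). p53 activity itself was not measured. Of 22 genes of G1 cyclins and kinases, 5 rose (2 without untreated replicate 2, 1 without OTX015 replicate 2) and 6 fell. Over all 4 P/R libraries these are 22.7% and 27.3% of the list, near the shares over all genes tested. The G1 kinase gene CDK6 fell (log2 change -0.44, SE 0.088, adjusted p = 0.00302).

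Of 26 AP-1 and immediate early genes, 12 rose and 7 fell (4 without untreated replicate 2, 4 without OTX015 replicate 2). EGR1 stood at 23.6 and 24.4 FPKM untreated and 51.2 and 45.5 FPKM under OTX015 (log2 change 0.98, SE 0.11, adjusted p = 1.5e-04), FOS rose (log2 change 0.83, SE 0.16, adjusted p = 0.0024), and BATF fell (log2 change -1.26, SE 0.12, adjusted p = 4.61e-05) beside FOSL1. The MAPK feedback gene ETV4 fell (log2 change -1.05, SE 0.082, adjusted p = 2.01e-05). Genes of programmed cell death moved modestly. Of 15 BCL2 family genes tested, 7 rose (46.7%) and 2 fell (13.3%), beside 22.5% and 21.8% of all genes tested. The BH3-only genes BBC3 (log2 change 0.50, SE 0.086, adjusted p = 0.00152) and BCL2L11 (log2 change 0.44, SE 0.092, adjusted p = 0.00415), which promote apoptosis, rose. BCL2L1, which encodes the protective BCL-XL, fell (log2 change -0.23, SE 0.044, adjusted p = 0.00285). The other called members are not named here.

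Lysosome and autophagy genes rose more often than they fell. Of 40 lysosome genes, 18 rose and 4 fell (median log2 change 0.24). The sialidase gene NEU1 stood at 16.8 and 16.4 FPKM untreated and 45.9 and 46.5 FPKM under OTX015 (log2 change 1.43, SE 0.055, adjusted p = 4.28e-07), and the sphingomyelinase gene SMPD1 (log2 change 1.05, SE 0.12, adjusted p = 1.29e-04) and the cholesterol transport gene NPC2 (log2 change 0.74, SE 0.10, adjusted p = 4.51e-04) rose, but the cathepsin genes CTSS (log2 change -1.45, SE 0.14, adjusted p = 6.02e-05) and CTSH (-0.58) fell. Of 36 autophagy genes, 15 rose (8 without OTX015 replicate 2) and 0 fell. The cargo receptor gene SQSTM1 stood at 67.9 and 62.7 FPKM untreated and 137 and 131 FPKM under OTX015 (log2 change 1.03, SE 0.063, adjusted p = 5.36e-06), and ATG2A rose as much (log2 change 1.03, SE 0.077, adjusted p = 1.53e-05). Tubulin genes rose in 9 of 17: TUBB4B went from 364 and 380.4 to 769 and 709.8 FPKM (log2 change 0.99, SE 0.047, adjusted p = 1.6e-06) and the neuronal isoform TUBB3 from 3.87 and 3.59 to 15.6 and 15.7 FPKM (log2 change 1.82, SE 0.079, adjusted p = 8.45e-07), while TUBB1, the platelet isoform, fell (log2 change -0.63, SE 0.087, adjusted p = 4.33e-04).

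The WNT list, which the β-catenin axis belongs to, had 10 rises and 10 falls among 40 (25.0% each). Over all genes tested 22.5% rose and 21.8% fell, so the list lay near the background. The ligand gene WNT10B (log2 change -1.13, SE 0.11, adjusted p = 6.79e-05), the receptor-degrading ligase gene RNF43 (log2 change -1.03, SE 0.13, adjusted p = 2.85e-04), the WNT-inactivating NOTUM (log2 change -0.95, SE 0.10, adjusted p = 1.03e-04) and the partner LEF1 (log2 change -0.65, SE 0.14, adjusted p = 0.00539) fell. The co-receptor gene LRP6 (log2 change 0.75, SE 0.083, adjusted p = 1.25e-04) and CTNNBIP1, which keeps β-catenin from its partners (log2 change 1.08, SE 0.13, adjusted p = 1.88e-04), rose. Of NOTCH genes, HES6 rose (log2 change 1.19, SE 0.10, adjusted p = 3.09e-05) and HES1 fell (log2 change -0.69, SE 0.073, adjusted p = 9.14e-05). Of 36 acetyltransferase and deacetylase genes, 11 rose (6 without untreated replicate 1, 5 without untreated replicate 2, 6 without OTX015 replicate 1) and 5 fell (3 without untreated replicate 1, 3 without untreated replicate 2). Of 50 methyltransferase and demethylase genes, 12 rose (7 without untreated replicate 1, 6 without untreated replicate 2, 7 without OTX015 replicate 1) and 11 fell (7 without untreated replicate 2, 7 without OTX015 replicate 2). The DNA methyltransferase gene DNMT3A fell (log2 change -0.98, SE 0.076, adjusted p = 1.81e-05), the acetyltransferase gene EP300 rose (log2 change 0.43, SE 0.11, adjusted p = 0.00945; adjusted p 0.0694 without untreated replicate 2, 0.0658 without OTX015 replicate 1) and its relative KAT2A fell (log2 change -0.53, SE 0.093, adjusted p = 0.00163). Among drug efflux and metabolism genes, 6 of 21 rose (28.6%) and 2 fell (9.5%), beside 22.5% and 21.8% of all genes tested. ABCB1, the efflux pump P-glycoprotein, stood at 39.2 and 41.4 FPKM untreated and 59.4 and 53.2 FPKM under OTX015 (log2 change 0.47, SE 0.071, adjusted p = 7.21e-04), GCLC, an enzyme of glutathione synthesis, rose (log2 change 0.68, SE 0.10, adjusted p = 6.1e-04), and the pumps ABCC3 (log2 change -1.28, SE 0.10, adjusted p = 2.33e-05) and ABCC4 (log2 change -0.62, SE 0.065, adjusted p = 9.17e-05) fell.

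Large families near or below the background were the ZNF genes and the solute carriers. The methyltransferase and demethylase list also lay near it, with 24.0% rises and 22.0% falls. Of 361 ZNF genes, 40 rose (25 without untreated replicate 1, 18 without untreated replicate 2, 20 without OTX015 replicate 1) and 38 fell (19 without untreated replicate 1, 23 without untreated replicate 2, 20 without OTX015 replicate 2). Of 202 solute carriers, 47 rose (31 without untreated replicate 1) and 45 fell. Single members stood out by size: ZNF692 fell from 90.9 and 80.9 to 34.9 and 33.1 FPKM (log2 change -1.31, SE 0.095, adjusted p = 1.3e-05) and the iron exporter gene SLC40A1 from 27.7 and 24.1 to 6.98 and 7.17 FPKM (log2 change -1.73, SE 0.091, adjusted p = 2.64e-06). Among the most abundant genes of untreated P/R cells that passed, besides globins, were the actin gene ACTG1 (log2 change 0.30, SE 0.043, adjusted p = 5.28e-04), the chaperone gene HSPA8 (log2 change -0.29, SE 0.031, adjusted p = 1.01e-04), PABPC1 (0.14), RPLP1 (0.15) and RPS21 (-0.14). Of these, PABPC1 (adjusted p 0.0653 without untreated replicate 1, 0.0659 without untreated replicate 2), RPLP1 (adjusted p 0.0879 without untreated replicate 2) and RPS21 (adjusted p 0.175 without untreated replicate 1, 0.0553 without untreated replicate 2, 0.0704 without OTX015 replicate 1, 0.0916 without OTX015 replicate 2) lost the call without single libraries. The mitochondrial genome's 13 genes included 4 that fell, MT-ND1 (-0.38), MT-ND2 (-0.32), MT-CO2 (-0.18) and MT-ATP8 (-0.42), and 0 that rose. Leaving out either untreated library gave MT-CO2 and PABPC1 the same log2 change as the full fit. The untreated replicates of both genes were thus tied, and the limit given for the globins applies. MT-ND1 kept its call with each P/R library left out. MT-ND2 then reached adjusted p 0.128 without untreated replicate 2, 0.174 without OTX015 replicate 1. MT-CO2 reached adjusted p 0.0942 without untreated replicate 1, 0.0948 without untreated replicate 2, 0.0881 without OTX015 replicate 1. MT-ATP8 reached adjusted p 0.0544 without untreated replicate 2.

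Among the large falls, the second treated replicate was mostly the lower of the pair. Of the 197 genes that fell by at least 1 log2 unit, 152 (77.2%) were lower in treated replicate 2 than in treated replicate 1, beside 51.6% of all genes tested, with a median log2 difference of -0.12. In the untreated libraries 46.2% of the same genes were lower in replicate 2. PIGY, GRIK4, CTC-429P9.4 and MPP6 had the widest gaps between treated replicates at a mean of at least 5 FPKM.

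The same dose and time in parental cells gave a response that shares no library with that of P/R cells. In parental cells 5667 genes were called (50.4%), 2890 up (25.7%) and 2777 down (24.7%). Of the P/R calls, 4140 were called in the same direction in parental cells (83.1% of the P/R calls and 73.1% of the parental calls), and 11 in the opposite one. Across all genes tested the log2 changes correlated at r = 0.891 (Spearman 0.868), a description over genes within these 8 libraries. The median absolute log2 change was 0.215 in P/R and 0.244 in parental cells. Of the 314 P/R calls of at least 1 log2 unit, 306 were called the same way in parental cells, and the change was larger in P/R cells for 122. A test of the difference itself passed for 9 genes (0.08%), 7 with a higher log2 change in P/R cells (0.0622%) and 2 with a lower one (0.0178%), while 1080 had an unadjusted p under 0.05. A gene called in 1 line and not in the other is thus not shown to differ. Among the 11 genes with opposite calls the adjusted p of the difference was 0.0814 to 0.187.

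**Figure D5:**
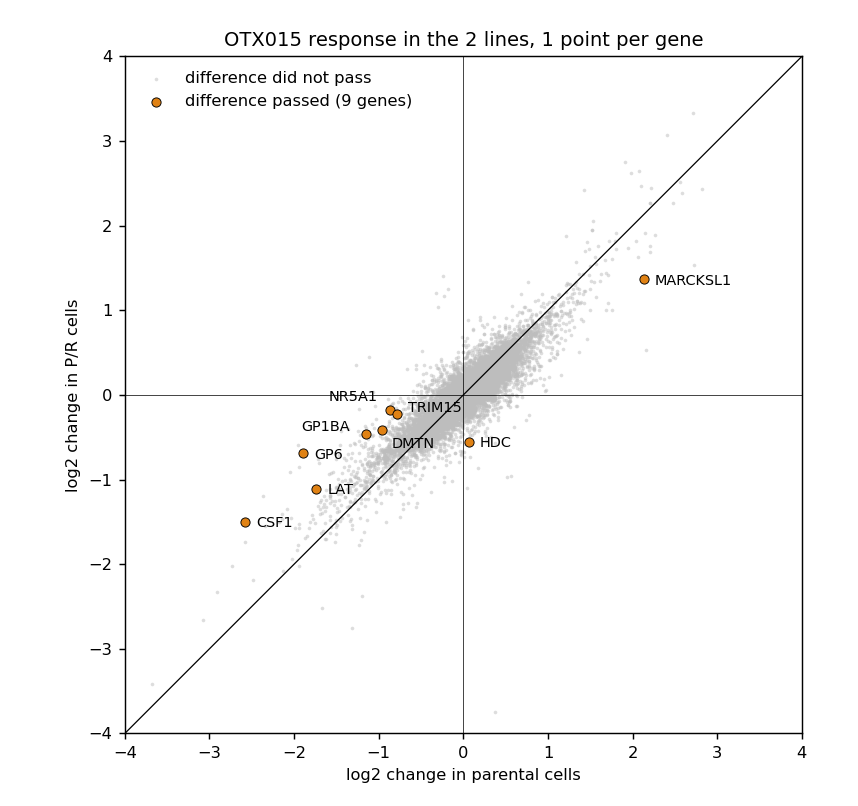
Log2 change in P/R cells (y axis) against log2 change in parental cells (x axis), 1 point per gene, with the line of equal response; orange points are the 9 genes whose difference passed. Points follow the diagonal (r = 0.891), and MARCKSL1 and HDC lie below it while GP6, CSF1, LAT, DMTN, GP1BA, NR5A1 and TRIM15 lie above.

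GP6, the collagen receptor of platelets, had the largest difference in response. It stood at 48.6 and 46.9 FPKM untreated and 30.5 and 27.9 FPKM under OTX015 in P/R cells and at 25.3 and 25.2 FPKM untreated and 6.27 and 5.88 FPKM under OTX015 in parental cells, so its log2 change was -0.69 against -1.89 (difference 1.20, SE 0.10, adjusted p = 0.00412). LAT, which passes on the GP6 signal, changed by -1.11 in P/R and -1.74 in parental cells (difference 0.62, SE 0.083, adjusted p = 0.0478), and GP1BA, a subunit of the von Willebrand factor receptor, changed by -0.46 and -1.15 (difference 0.69, SE 0.092, adjusted p = 0.0478). These 3 genes are on the megakaryocyte list, and the difference held for GP6 with each of the 8 libraries left out, for LAT in 1 of the 8 fits and for GP1BA in 0. CSF1 changed by -1.50 and -2.58 (difference 1.08, SE 0.15, adjusted p = 0.0478), DMTN, a gene of the red cell skeleton, by -0.42 and -0.96 (difference 0.54, SE 0.066, adjusted p = 0.0424), NR5A1, a nuclear receptor gene, by -0.18 and -0.87 (difference 0.69, SE 0.076, adjusted p = 0.026), and TRIM15 by -0.23 and -0.79 (difference 0.56, SE 0.076, adjusted p = 0.0478).

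MARCKSL1 and HDC had the lower change in P/R cells. MARCKSL1, an actin-binding membrane protein gene, stood at 60.4 and 60.8 FPKM untreated and 160.0 and 155 FPKM under OTX015 in P/R cells and at 41.4 and 41.6 FPKM untreated and 180.0 and 189.7 FPKM under OTX015 in parental cells (difference -0.76, SE 0.065, adjusted p = 0.00412), so it rose in both lines and by less in P/R cells. HDC stood at 263 and 247 FPKM untreated and 171 and 175 FPKM under OTX015 in P/R and at 425 and 380.4 FPKM untreated and 411 and 430.2 FPKM under OTX015 in parental cells (difference -0.62, SE 0.081, adjusted p = 0.0478). GP6 and MARCKSL1 passed with each of the 8 libraries left out in turn; NR5A1 passed in 2 of these 8 fits, DMTN, HDC and LAT in 1 and CSF1, GP1BA and TRIM15 in 0. Of the study axis, TCF7L2 changed by -0.58 in P/R and -0.23 in parental cells (difference -0.35, SE 0.15, adjusted p = 0.497), JMJD6 by -0.52 and -0.71 (difference 0.19, SE 0.094, adjusted p = 0.571), MYC by -0.24 and -0.21 (difference -0.035, SE 0.047, adjusted p = 0.874) and CTNNB1 by 0.45 and 0.58 (difference -0.14, SE 0.064, adjusted p = 0.547). HEXIM1, which is outside the axis, changed by 1.45 and 1.69 (difference -0.24, SE 0.077, adjusted p = 0.36). The 13 mitochondrial genes had a median log2 change of -0.09 in P/R and 0.17 in parental cells, with adjusted p for the difference from 0.0557 to 0.983.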

How the data were processed

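Total RNA of P/R and parental cells, treated with DNase, was sequenced on Illumina libraries in 4 groups of 2, per the labels' protocols. The authors deposited 1 table of 19718 genes by 8 libraries. Its values are taken to be FPKM, inferred from the values and the deposited tool names, since the header gives no unit. TopHat2 2.0, Cufflinks 2.0 and hg19 are named per the submitters' processing notes; for their settings, for poly(A) selection and for strand these sources hold no statement. The sorted values of the libraries differ by at most 0.136%, so the table is quantile normalized; depth and global change cannot be recovered, so no counting error is given. Genes with near-identical copies are uncertain, as are overlapping genes if strand was not kept. Of the symbols, 28 turned into numbers were restored through their Ensembl identifiers.

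Values were transformed to log2(FPKM + 1), and 4 group means were fitted over all 8 libraries in limma 3.58.1 (R 4.3.3; eBayes with trend, 4 residual and 5.23 prior degrees of freedom), two-sided, with Benjamini-Hochberg adjustment over the 11255 genes with at least 1 FPKM in at least 2 libraries. The script was tested on simulated data. The contrasts were treated against untreated P/R cells, the same in parental cells, and the difference of both. The 42 gene lists and 24 symbol families, and the libraries described, were chosen with earlier results of these data known, so lists are described by counts and medians without a set test. Named genes are HEXIM1, the study axis, the 15 called genes with the largest change in each direction at a mean of at least 5 FPKM, up to 6 such members of a list (and up to 2 in the minority direction), the 10 most abundant called genes, the genes whose difference passed and the 4 widest gaps between treated replicates; some that the rule names are not reported here. The fits were repeated with a pseudocount of 0.1 or 5, without the filter or with a mean of 5 FPKM required, without the trend, with centred medians, on the compared groups alone, with a replicate block, with a log2 change of 1 required, and with single libraries left out. A crossed block was added after seeing the data. Promoter letters come from RefSeq (GRCh38.p14), matched by symbol for 9180 of the tested genes (81.6%); no coordinates of the deposited table are used.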

Additional observations from a re-analysis of the deposited data

Results flagged for a closer look

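The response to OTX015 differed between P/R and parental cells, by limma's test of the difference, for 9 genes. The log2 differences, P/R minus parental, were 1.20 for GP6, 1.08 for CSF1, 0.69 for NR5A1, 0.69 for GP1BA, 0.62 for LAT, 0.56 for TRIM15, 0.54 for DMTN, -0.62 for HDC and -0.76 for MARCKSL1. GP6 kept its call in 16 of 16 alternatives and MARCKSL1 in 15 of 16, its adjusted p being 0.0831 in the fit without a variance trend. NR5A1 kept it in 6, DMTN in 5, HDC and LAT in 4, and CSF1, GP1BA and TRIM15 in 3. All 9 kept the sign of the difference with each of the 8 libraries left out.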

How the results depend on the processing

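In P/R cells, 4130 to 4982 genes were called under 2 pseudocounts, both filters, no trend, centring, the groups alone and both blocks, and 3648 to 4177 with 1 P/R library left out. With a log2 change of at least 1, the counts were 314 (117 higher, 197 lower) in P/R and 486 in parental cells. The difference in response passed for 9 genes, and the count became 4 with a pseudocount of 0.1, 29 with a pseudocount of 5, 4 without a filter, 3 without a trend, 2 with a log2 change of at least 1, and 2 to 8 with 1 library left out. With the replicate number as a block, 4875 genes were called in P/R cells, 5565 in parental cells and 2 for the difference; with crossed numbers, 4865 and 2. Deviations of same-numbered libraries correlated at 0.014 between the P/R groups and at -0.120 between the treated groups of the lines, so the numbers were not taken as pairs. A fit of only the groups compared is the same fit for the difference, so it was not run.

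Of 204 named genes that were called, 187 kept the call in every alternative in which they were tested, the log2 threshold aside, and 0 reversed. Besides the genes given in the report, NR5A1 (adjusted p 0.102 without untreated replicate 1, 0.0933 without untreated replicate 2, 0.1 without OTX015 replicate 2) and TRIM15 (adjusted p 0.0561 without untreated replicate 2) lost the call in P/R cells; ZNF574 lies at the threshold. Counts of list members that moved by over 1.5 times without single P/R libraries stand beside the counts in the report. Those of the BCL2 family moved too and are not given. With a mean of at least 5 FPKM required, fewer genes were tested. The rises of clustered histone genes then numbered 1 for H1, 7 for H2B, 2 for H3 and 6 for H4. The falls numbered 8 for stem and progenitor genes, 5 for potassium channels, 5 for cytokines and chemokines and 1 for lymphocyte genes. The depth is unknown, so low genes near 1 FPKM carry an error that these files do not show.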
